A study of Mus musculus with 2 samples.

Results

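*Meg3* peaks in LTR retrotransposons were those peaks of the *Meg3* ChIRP-seq lists whose deposited annotation names a repeat of the class LTR at the peak. There were 337 of them among 2763 peaks, 178 of 1554 in KO and 159 of 1209 in WT. In ChIRP-seq, biotinylated DNA probes against an RNA pull down crosslinked chromatin, and the DNA that comes with it is sequenced. *Meg3* is an imprinted long non-coding RNA, and WT and β-actin KO mouse embryonic fibroblasts (MEFs), cultured connective tissue cells, were compared. The KO MEFs came from an embryonic lethal β-actin KO, so that each genotype is represented by its own cell line, and cells of both genotypes were fixed in 1% glutaraldehyde for 10 min. The 4 libraries of a genotype, 2 with an odd and 2 with an even pool of probes, were merged by the authors before peaks were called against input, which gave 1 list per genotype. There were therefore no replicate lists. Each share below is a share of peaks with a Wilson 95% interval that covers only the counting of peaks, and each test takes peaks as units and compares the lists, not cultures. The score is 1 for every peak and no read depth is given, so peaks could not be ranked by strength or coverage. No LTR peak overlapped a peak of the other list by 1 bp or more, and neither did any of the 2763 peaks, so this is a property of the lists as a whole. The study sorted its peaks into those unique to WT, those unique to KO and shared ones, and it does report shared peaks. How the lists used here relate to that sorting is not known, so the missing overlap does not mean that binding never coincides. Repeats are named in the lists where a peak is intergenic or in an intron, which limits LTR peaks to those 2 categories.

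LTR retrotransposons, or endogenous retroviruses, are the remains of retroviral insertions in the germ line. A complete copy has an internal region with the retroviral genes, framed by a pair of long terminal repeats (LTRs) that hold the promoter and the polyadenylation signal. Just inside the 5′ LTR lies the primer binding site, to which a cellular tRNA anneals to start reverse transcription. Both LTRs of a copy are identical when it inserts and drift apart with time, so near-identical ends mark a young copy, and recombination between them leaves a solitary LTR. In mouse, the ERVK family holds the intracisternal A particles (IAP) and the early transposons (ETn), which are still mobile. ERV1 elements are related to murine leukaemia virus, and ERVL and the non-autonomous ERVL-MaLR elements (MT and ORR1) are known for their transcription in oocytes and early embryos. Most of these elements are kept silent by KRAB zinc-finger proteins, TRIM28 and SETDB1, and by DNA methylation.

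The sequences under LTR peaks are shown first for the 3 groups of elements with the most peaks, because KO and WT peaks on different chromosomes lay on copies of the same sequence. Sequences are from the plus strand of GRCm38, and capitals mark the stretch of 31 bases that the largest number of peaks of that element held, on either strand. For IAPEz-int, the internal part of IAP, that stretch was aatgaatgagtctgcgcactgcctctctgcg, which 10 peaks held (4 KO and 6 WT) and which occurs 1174 times on chromosomes 1 to 19 and X. The whole of the 201 bases under the KO peak near *Spanxn4* lay, on the other strand, unchanged within the WT peak near *Stfa1*. Both peaks are intergenic, 151817 bp upstream and 21842 bp downstream of the transcription start site (TSS) of the named gene.
KO IAPEz-int, chr12:62535870-62536070: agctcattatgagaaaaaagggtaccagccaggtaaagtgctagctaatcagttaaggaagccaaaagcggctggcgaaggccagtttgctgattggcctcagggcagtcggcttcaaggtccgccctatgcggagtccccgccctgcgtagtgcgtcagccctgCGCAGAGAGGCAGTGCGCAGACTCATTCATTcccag
WT IAPEz-int, chr16:36298849-36299131: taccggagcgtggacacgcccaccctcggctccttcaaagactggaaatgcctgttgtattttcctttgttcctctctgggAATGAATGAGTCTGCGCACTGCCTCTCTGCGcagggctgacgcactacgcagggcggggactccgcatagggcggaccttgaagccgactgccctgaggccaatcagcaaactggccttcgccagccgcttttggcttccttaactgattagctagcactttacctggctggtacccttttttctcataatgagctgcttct

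In MTA, an ERVL-MaLR element annotated as MTA_Mm (its LTR) and MTA_Mm-int, the stretch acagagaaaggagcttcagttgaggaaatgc was held by 11 peaks, 2 KO and 9 WT, and occurs 6016 times in the genome. The KO peak near *Tmem182* and the WT peak near the olfactory receptor gene *Olfr1463*, both intergenic, aligned over 214 bases with an identity of 97.7%.
KO MTA_Mm, chr1:40915381-40915594: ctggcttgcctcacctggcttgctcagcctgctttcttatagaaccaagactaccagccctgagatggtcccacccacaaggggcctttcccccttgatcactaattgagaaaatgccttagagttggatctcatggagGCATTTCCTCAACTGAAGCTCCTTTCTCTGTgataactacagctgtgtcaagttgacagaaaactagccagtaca
WT MTA_Mm, chr19:13245252-13245535: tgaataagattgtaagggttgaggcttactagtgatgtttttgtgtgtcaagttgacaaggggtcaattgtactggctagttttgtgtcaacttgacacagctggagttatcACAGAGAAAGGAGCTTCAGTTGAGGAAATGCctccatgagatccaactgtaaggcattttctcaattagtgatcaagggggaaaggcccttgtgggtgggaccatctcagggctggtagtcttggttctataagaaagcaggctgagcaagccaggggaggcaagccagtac

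In RLTR6-int, the internal part of an ERV1 element, 4 peaks (2 KO and 2 WT) held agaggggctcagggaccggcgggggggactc, which occurs 82 times. The KO peak near *Kcnj3*, a potassium channel gene, and the WT peak near *Mlana*, a melanosome gene, are intergenic and aligned over 102 bases with an identity of 98.0%.
KO RLTR6-int, chr2:55788924-55789154: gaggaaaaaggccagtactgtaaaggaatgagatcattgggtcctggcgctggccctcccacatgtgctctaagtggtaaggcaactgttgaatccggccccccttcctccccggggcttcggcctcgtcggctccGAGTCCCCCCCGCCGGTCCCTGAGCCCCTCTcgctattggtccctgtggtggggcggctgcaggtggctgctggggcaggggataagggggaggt
WT RLTR6-int, chr19:29687048-29687246: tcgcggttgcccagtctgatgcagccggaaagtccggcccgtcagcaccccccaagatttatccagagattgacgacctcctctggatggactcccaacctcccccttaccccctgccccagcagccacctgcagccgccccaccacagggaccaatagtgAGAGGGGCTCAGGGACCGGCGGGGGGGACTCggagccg

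Across all LTR peaks, 17 KO peaks (9.55%) held at least 1 stretch of 100 bases that also lies under a WT LTR peak, and 21 WT peaks (13.2%) held at least 1 that lies under a KO LTR peak. In 1 KO and 2 WT peaks every stretch of 100 bases lay under a peak of the other list. IAPEz-int supplied 4 such peaks in KO and 9 in WT. When LTR peaks were aligned to each other, 169 of 337 (50.1%; 80 KO and 89 WT) fell into 35 groups of like sequence, joined where at least 50% of the shorter peak aligned with at least 80% identity. Of those groups, 19 held peaks of both lists. The largest was MTA with 37 peaks (15 KO and 22 WT) on 16 chromosomes, followed by IAP with 33 peaks (15 KO and 18 WT) on 11 chromosomes and ETn with 12 peaks (7 KO and 5 WT).

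ERVK was the most frequent family, with 101 KO and 82 WT peaks (56.7% and 51.6% of LTR peaks). ERV1 had 38 and 32 peaks (21.3% and 20.1%) and ERVL-MaLR had 27 and 34 (15.2% and 21.4%), so that ERV1 came second in KO and ERVL-MaLR in WT. ERVL had 10 and 11 (5.62% and 6.92%), and 2 KO peaks were of ERVK?, a family the annotation writes with a question mark. The difference between KO and WT passed the test in none of the 4 families. The largest was that in ERVL-MaLR, -6.22 percentage points (p = 0.157 by the two-sided Fisher's exact test, which was used throughout; adjusted over the 4 families p = 0.629). It was -1.23 percentage points among peaks whose sequence occurs once in the genome, -1.59 within 100 kb of a transcription start site and -2.89 without chromosomes 13, 5 and 17. LTR peaks made up 11.5% of KO peaks and 13.2% of WT peaks, a difference of -1.70 percentage points that did not pass the test (Fisher's exact test, p = 0.178). That direction turned when peaks in L1, the long interspersed repeats that hold 925 KO and 624 WT peaks, were left out: LTR peaks then made up 178 of 629 KO and 159 of 585 WT peaks, 1.12 percentage points more in KO (Fisher's exact test, p = 0.700).

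Most LTR peaks lay in internal parts rather than in the LTR itself. Internal parts, named with the ending -int, held 107 of 178 KO peaks (60.1%, 52.8 to 67.0%) and 84 of 159 WT peaks (52.8%, 45.1 to 60.4%), a difference of 7.28 percentage points (Fisher's exact test, p = 0.188). In ERVK the internal parts held 113 of 183 peaks, in ERV1 41 of 70 and in ERVL-MaLR 34 of 61, whereas in ERVL only 3 of 21 peaks were internal.

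**Figure D1:**
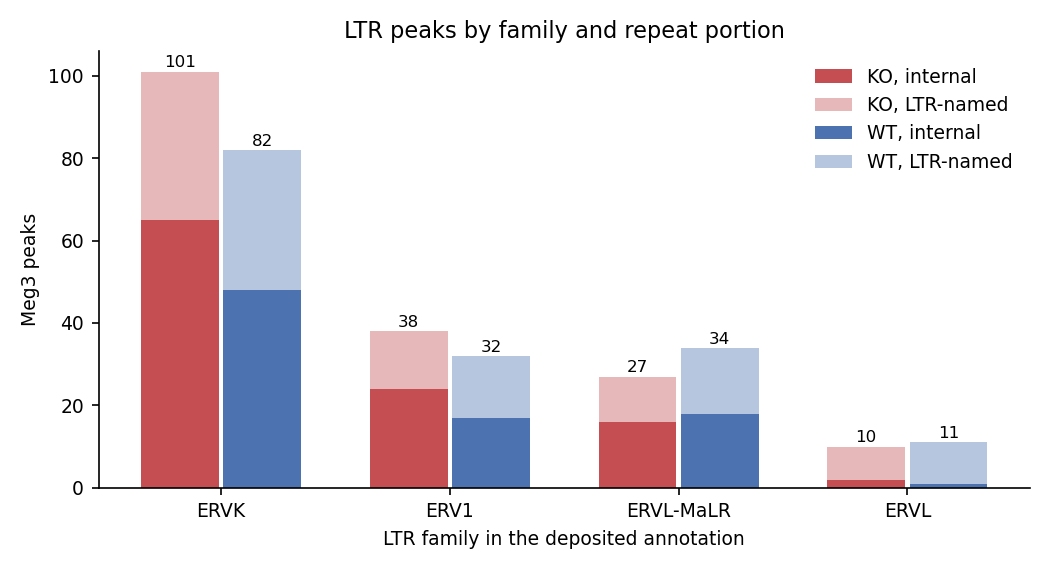
Number of LTR peaks (y axis) in each family (x axis) for KO and WT, with peaks in internal parts in full colour and LTR-named peaks in pale colour, and with the total written over each bar. ERVK leads both lists with 101 KO and 82 WT peaks, and internal peaks outnumber LTR-named peaks in the families drawn but ERVL (3 of 21 internal); the 2 peaks of ERVK? are not drawn.

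The 337 peaks carried 116 repeat names, of which 65 named 1 peak each, and 31 names occurred in both lists. The 12 names with at least 5 peaks held 168 peaks (49.9%). IAPEz-int came first, with 26 KO and 25 WT peaks, and RLTR6-int followed with 12 and 12. MTA_Mm-int had 11 KO and 10 WT peaks, while its LTR, MTA_Mm, had 4 KO and 11 WT peaks. MMETn-int, the internal part of ETn, had 9 KO and 4 WT peaks, RLTR10-int had 5 and 5, and IAPEY3-int had 6 and 3. The others were ETnERV3-int and MMERVK10C-int with 4 KO and 1 WT peaks each, RLTR13A2 with 1 and 4, RMER10A with 3 and 2 and MT2B1 with 2 and 3. No test was run on single names.

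**Figure D2:**
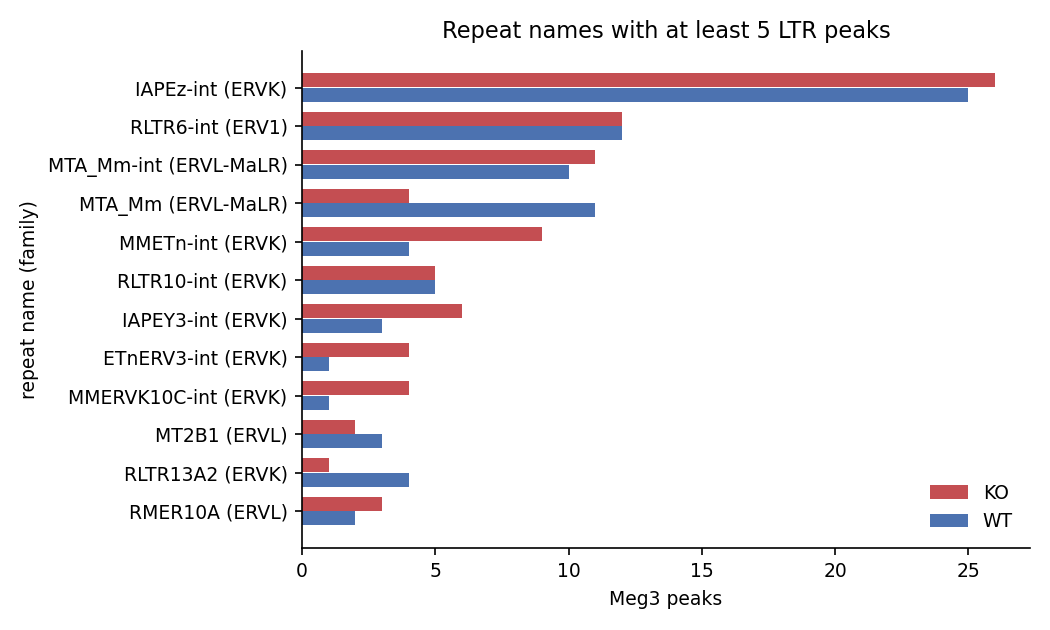
Number of LTR peaks (x axis) for each of the 12 repeat names with at least 5 peaks (y axis, family in parentheses) in KO and WT. IAPEz-int (26 and 25) and RLTR6-int (12 and 12) have like counts in KO and WT, and the counts of MTA_Mm (4 and 11) and MMETn-int (9 and 4) are further apart.

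The sequence under LTR peaks was repeated less often than that of L1 peaks and more often than that of the other peaks. As a measure, the number of places on chromosomes 1 to 19 and X, on either strand, with the same 100 bases was found for each stretch of that length in a peak. A peak whose median stretch occurs once is called single-copy. Of LTR peaks, 79 of 178 in KO were single-copy (44.4%, 37.3 to 51.7%) and 66 of 159 in WT (41.5%, 34.1 to 49.3%), a difference of 2.87 percentage points that did not pass the test (Fisher's exact test, p = 0.660). Single-copy peaks made up 9.95% (KO) and 10.3% (WT) of L1 peaks, and 87.4% and 89.4% of peaks outside L1 and LTR. The median LTR peak had 2 copies in KO and 3 in WT, against 1851 and 1927 for L1 peaks. Internal peaks were single-copy in 50 of 191 cases (26.2%, 20.5 to 32.8%) and LTR-named peaks in 95 of 146 (65.1%, 57.0 to 72.3%), and these intervals do not overlap. ERVL, most of it LTR-named, was single-copy in 17 of 21 peaks. At the other end, the KO IAPEz-int peak near *Pkdcc* had a median of 615 copies, the most of any LTR peak, and the most in WT was 410, for the IAPEz-int peak in an intron near *Ninj2*. Peaks of IAPEz-int had a median of 27 copies, MTA_Mm-int 22 and MMETn-int 17, whereas RLTR6-int had 7.5 and IAPEY3-int 2. How reads that fit several places were assigned is not given in the sources used here, so the copy under a peak of high copy number is not certain, and its part in the results was not tested.

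**Figure D3:**
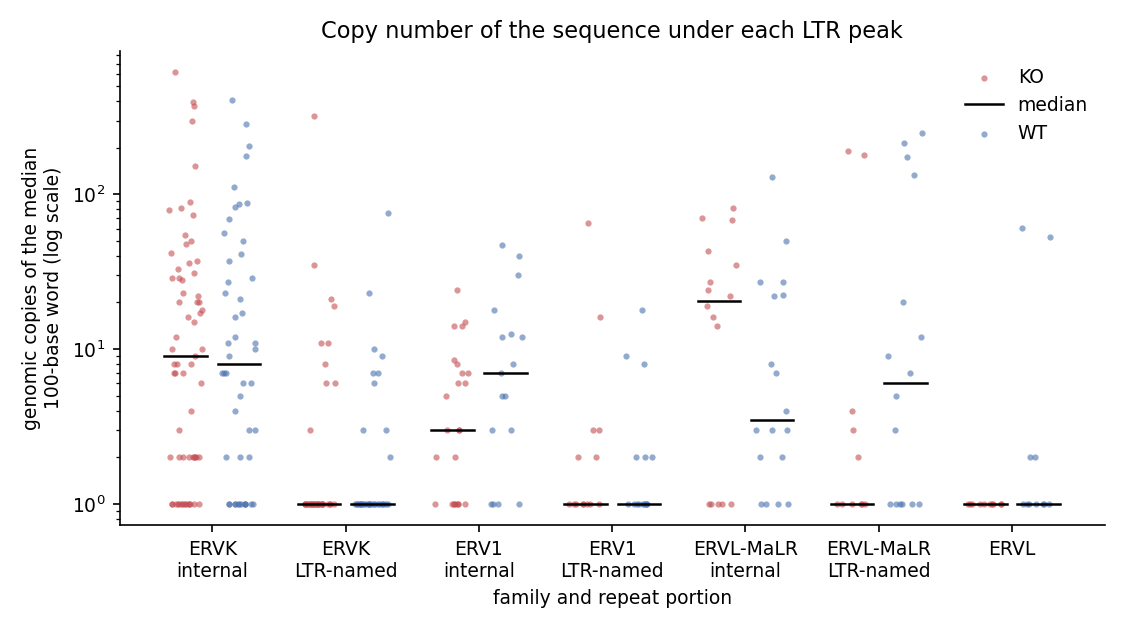
Genomic copies of the median stretch of 100 bases under each LTR peak (y axis, log scale) by family and repeat portion (x axis) for KO and WT, 1 point per peak with black bars at the medians. LTR-named ERVK, ERV1 and ERVL peaks lie mostly at 1 copy, and internal ERVK peaks reach 615.

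To see whether a peak lay in a complete copy, the sequence within 12000 bp on either side was searched for a pair of matching ends in the same orientation, at least 200 bp long and 80% identical, that enclose the middle of the peak. Of 191 internal peaks, 159 lay between such ends (83.2%, 77.3 to 87.9%), with 89 of 107 in KO and 70 of 84 in WT. The ends had a median identity of 99.5% (quartiles 98.2 to 100%), and those of 42 internal peaks were identical throughout. The same search placed 20.1% of L1 peaks and 5.59% of peaks outside L1 and LTR between matching ends. Over all pairs found for them, including those with the peak in an end, the median identities were 89.1% and 87.6%. ERV1 internal peaks were framed in 37 of 41 cases, in copies with a median length of 8739 bp. ERVK internal peaks were framed in 97 of 113 cases (median length 5397 bp) and ERVL-MaLR internal peaks in 24 of 34 (median length 1888 bp). For IAPEz-int it was 49 of 51 peaks and for RLTR6-int 24 of 24. Among LTR-named peaks, 32 of 146 lay within an end itself and 15 between ends. When ends of at least 300 bp and 95% identity were required, 133 of 191 internal peaks (69.6%) stayed framed.

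Several framed copies carried peaks of both lists. Of 175 framed copies, 22 held more than 1 LTR peak and 14 held peaks of both lists (19 KO and 16 WT), with a gap between the closest KO and WT peaks of 30 to 6739 bp. A frame is the longest pair of matching ends around a peak, and need not be both LTRs of 1 element. Near *Smr2* the frame was 12449 bp long with ends 88.7% identical, and LTR-named peaks lay between them. The gap of 6739 bp was in a frame of 11270 bp near *Raet1d* with ends 90.5% identical. In the RLTR6 copy at chr19:29685616-29694354, upstream of *Mlana*, KO peaks began at 29686231 and 29693605 and WT peaks at 29687048 and 29692459. That copy is 8739 bp long and its ends are 99.1% identical. Other RLTR6 copies near *2410018L13Rik*, *Gm8016* and *Csmd3* held 1 KO and 1 WT peak each, and the copy near *Wdr45b* held 2 KO peaks. The closest neighbours lay in an IAPEz copy of 5397 bp with identical ends at chr8:16790177-16795573, in an intron, where the KO and WT peaks were 30 bp apart. Its KO peak was single-copy and its WT peak had a median of 176 copies, and the TSS of *Mir3106*, the gene named for both, is 625192 bp from the KO peak.
KO IAPEz-int near Mir3106, chr8:16793901-16794160: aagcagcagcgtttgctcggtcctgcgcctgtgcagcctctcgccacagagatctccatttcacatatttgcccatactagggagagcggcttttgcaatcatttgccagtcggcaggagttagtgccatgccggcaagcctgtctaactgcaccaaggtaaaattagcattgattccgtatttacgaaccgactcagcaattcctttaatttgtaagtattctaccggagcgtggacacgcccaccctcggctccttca
WT IAPEz-int near Mir3106, chr8:16794191-16794374: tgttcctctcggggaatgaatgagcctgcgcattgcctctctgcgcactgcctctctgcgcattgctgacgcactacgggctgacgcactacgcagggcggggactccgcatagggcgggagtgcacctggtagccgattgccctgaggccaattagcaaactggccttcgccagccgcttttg

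The MTA copy in an intron near *Esp34*, which encodes a secreted peptide of exocrine glands, held a WT peak in its end and a KO peak between its ends, 592 bp apart, both single-copy. Near *Atoh1*, a neuronal transcription factor gene, an ETnERV3 copy held 1 peak of each list. An RLTR10 copy near *Amer3* held 3 KO peaks and no WT peak, and an element with RLTR13A2 ends near *Gbp11*, an interferon-induced GTPase gene, held 3 WT peaks and no KO peak.

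Within IAP copies, peaks gathered in the stretch that follows the 5′ LTR. Peaks of IAPEz-int were aligned to 1 complete copy of 7123 bp near *Aox2*, at chr1:58323348-58330470 on the minus strand, chosen as the copy to which the most IAPEz-int peaks aligned and oriented by its primer binding site. Of 50 peaks that could be placed, 32 (15 KO and 17 WT) had their middle in the 1000 bp that follow the 5′ LTR, which is 14.0% of the copy. None had its middle in an LTR, but only peaks named IAPEz-int were placed. Peaks in the LTRs of IAP carry other names, such as IAPLTR1a_Mm and IAPLTR2_Mm, so their absence follows from the choice by name. The framed copies that hold IAPEz-int peaks had a median length of 5194 bp (quartiles 4491 to 7096 bp). Many may thus lack parts of the 7123 bp, and the stretch would make up a larger share of them. The median position was 1186 bp from the 5′ end in KO and 1180 bp in WT. Beyond that stretch lay 11 KO peaks and 7 WT peaks. The stretch differed from the rest of the copy in copy number too: from 501 to 1500 bp, the median 100 bases occurred 74.5 and 72 times per bin of 500 bp, against 195 to 853 times in every other bin. The part of copy number in the position of the peaks was not tested. No peak was placed from 3001 to 4500 bp, where the bins had 385 to 500 copies, whereas the bin with the most copies, from 4501 to 5000 bp with 853, held 2 KO peaks. Whether the copies under the peaks hold the sequence of the empty bins was not tested.

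RLTR6-int and MTA peaks were more spread along their copies. For MTA, LTR-named peaks were placed together with internal ones, unlike for the other elements, so its spread is not compared like with like. All 24 RLTR6-int peaks were placed on a copy of 8852 bp near *Speer6-ps1* on chromosome 13, with 7 (2 KO and 5 WT) in the 1000 bp after the 5′ LTR (29.2% of peaks and 11.3% of the copy) and 17 (10 KO and 7 WT) further on. KO peaks reached from 770.5 to 8169 bp and WT peaks from 748.5 to 7393 bp. All 36 peaks of MTA were placed on a copy of 1893 bp near *Slc31a2* on chromosome 4, where 13 (4 KO and 9 WT) lay in the 3′ LTR, 2 WT peaks lay in the 5′ LTR and the others in between. Both LTRs of a copy are nearly the same sequence, so the assignment to the 3′ or the 5′ LTR rests on the few bases in which they differ. In MTA it also rests on an orientation by letters that were not checked to be a primer site. Of the 10 RLTR10-int peaks, 6 lay in the 1000 bp after the 5′ LTR, and of the 12 MMETn-int peaks that were placed, 2 did.

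**Figure D4:**
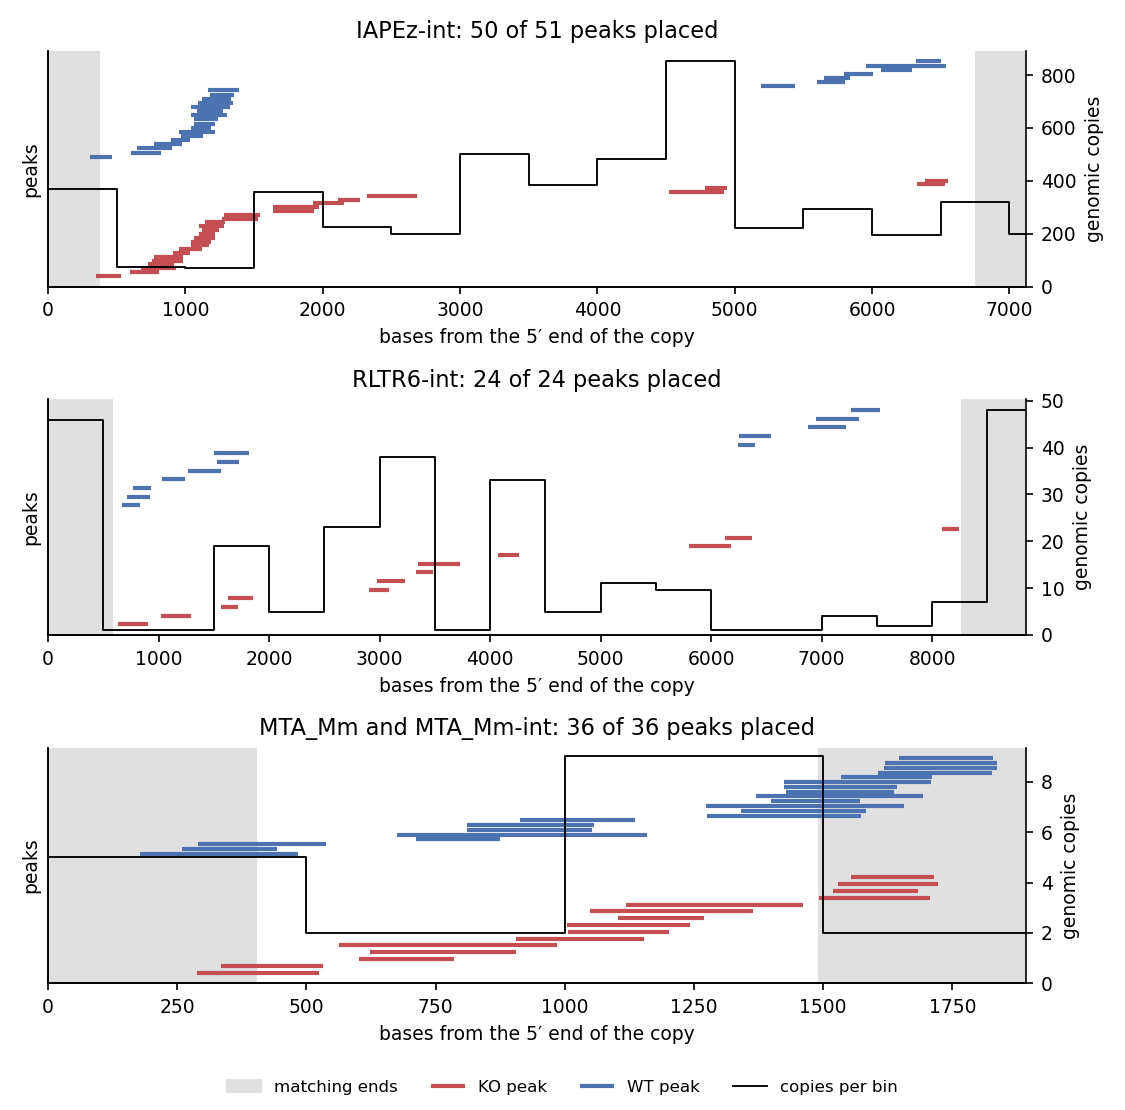
Places of KO and WT peaks along 1 complete copy each of IAPEz, RLTR6 and MTA (x axis, bases from the 5′ end; each bar is 1 peak, stacked in order of position), with the matching ends shaded and the genomic copies of the median 100 bases per bin of 500 bp as a black line (right axis). IAPEz-int peaks of both lists crowd in the 1000 bp after the 5′ end, which includes the bins with the fewest copies (72 and 74.5), and RLTR6-int peaks (7 of 24) and MTA peaks (17 of 36) are more spread. The MTA peaks include LTR-named ones, unlike those of the other elements.

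A few peaks reached the primer binding site itself. The site for the phenylalanine tRNA used by IAP, searched as TGGTGCCG on both strands in the 200 bp at the middle of each peak, was found in 5 of 337 LTR peaks (1.48%), all of them ERVK, against 0.121% of all tiles of 200 bp on chromosomes 1 to 19 and X. The site for the lysine tRNA (TGGCGCCC) was in 2 LTR peaks (0.593%, tiles 0.0931%) and that for the proline tRNA (TGGGGGCT) in 3 (0.890%, tiles 0.769%). These matches are descriptions of letters in a window, not of tRNA binding. Printed with the primer site in capitals are the KO peak near *Pkdcc*, the single-copy WT peak near *Wsb1*, which lies in part in an LTR and has the site on the minus strand, and the KO peak near *Tdpoz5*.
KO IAPEz-int, chr17:83256389-83256566: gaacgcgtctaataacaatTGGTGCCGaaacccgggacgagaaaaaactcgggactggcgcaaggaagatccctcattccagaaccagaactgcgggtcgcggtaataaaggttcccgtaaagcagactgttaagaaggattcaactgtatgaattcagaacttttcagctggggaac
WT IAPLTR2_Mm, chr11:79236518-79236779: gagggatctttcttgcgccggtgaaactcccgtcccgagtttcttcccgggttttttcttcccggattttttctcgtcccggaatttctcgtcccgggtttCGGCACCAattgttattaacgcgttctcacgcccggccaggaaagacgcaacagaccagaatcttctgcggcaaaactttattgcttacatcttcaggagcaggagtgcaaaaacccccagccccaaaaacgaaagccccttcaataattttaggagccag
KO RLTR45-int, chr3:94109132-94109292: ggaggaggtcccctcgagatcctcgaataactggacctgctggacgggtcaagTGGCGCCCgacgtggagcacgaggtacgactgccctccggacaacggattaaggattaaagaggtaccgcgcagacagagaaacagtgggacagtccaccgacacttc

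In base composition LTR peaks stood between L1 peaks and the others, with a median GC content of 47.5% in KO and 47.8% in WT, against 39.7% and 40.3% in L1 peaks and 53.6% and 52.4% in peaks outside L1 and LTR. CpG dinucleotides, at which DNA methylation occurs, were most frequent in ERV1 internal peaks (median 3.17 per 100 bases) and ERVK internal peaks (2.14), and rare in ERVL-MaLR internal (0.539) and LTR-named peaks (0.532). The polyadenylation signal AATAAA was in the middle 200 bp of 39 of 146 LTR-named peaks (26.7%) and 27 of 191 internal peaks (14.1%), against 28.2% of tiles, and the TATA box letters TATAAA in 15.8% and 5.76%, against 19.2% of tiles. CCAAT was in 39.5% of LTR peaks, 38.9% of L1 peaks and 19.95% of peaks outside L1 and LTR, against 29.4% of tiles. Among LTR peaks it was most often in ERVL-MaLR internal peaks (21 of 34).

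To measure how far LTR peaks resemble the probes, the 16 probes of 20 bases were set against either strand of the peaks. The longest exact match averaged 8.15 bases ± 0.847 (SD, n = 178 peaks) in KO LTR peaks and 8.25 bases ± 1.09 (SD, n = 159 peaks) in WT LTR peaks. In L1 peaks it averaged 8.08 and 8.06 bases, and in the other peaks 8.15 and 8.12. Matches of 12 bases or more were found in 3 LTR peaks, 1 KO and 2 WT. The longest, 13 bases of probe Meg3-1, lay in a pair of WT peaks in RLTR33 on chromosome 13, near *Zfp369* and *2410141K09Rik*, and the latter is shown with the matching bases in capitals beside the probe.
Meg3-1: agccaggtaagagattcttc
WT RLTR33, chr13:66294993-66295271: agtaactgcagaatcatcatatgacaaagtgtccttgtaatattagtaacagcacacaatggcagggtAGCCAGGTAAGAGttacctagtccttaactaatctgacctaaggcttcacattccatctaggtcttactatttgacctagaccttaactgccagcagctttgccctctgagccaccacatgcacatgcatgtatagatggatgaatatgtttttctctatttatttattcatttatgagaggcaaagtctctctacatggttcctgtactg

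By chromosome, LTR peaks were most numerous on chromosome 13, with 21 KO peaks (11.8%) and 40 WT peaks (25.2%), although it makes up 4.57% of the length of the chromosomes analysed. The difference of -13.4 percentage points was the only 1 of 20 chromosomes that passed the test (Fisher's exact test, p = 0.00175; adjusted over the 20 chromosomes p = 0.0349). By the same exact test it did not pass when peaks within 1 kb were merged (21 KO and 34 WT regions, -10.2 percentage points, adjusted p = 0.350). Among single-copy peaks alone the difference was larger, -18.1 percentage points, but with 12 of 79 KO and 22 of 66 WT peaks it did not pass the exact test (adjusted p = 0.234). Peaks outside L1 and LTR on chromosome 13 made up 6.87% of such peaks in KO and 15.5% in WT. Chromosome 5 had 21 KO and 16 WT LTR peaks and chromosome 17 had 18 and 16. Chromosome 12 had 12 KO and 3 WT LTR peaks (Fisher's exact test, p = 0.0354; adjusted p = 0.354). Chromosomes 1, 10, 11 and 12 hold 69.4% of KO and 73.1% of WT L1 peaks, and the share of LTR peaks on them did not pass the test against that of the other peaks outside L1, with 21.9% against 17.1% in KO (Fisher's exact test, adjusted p = 0.343) and 10.7% against 13.1% in WT (adjusted p = 0.484).

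**Figure D5:**
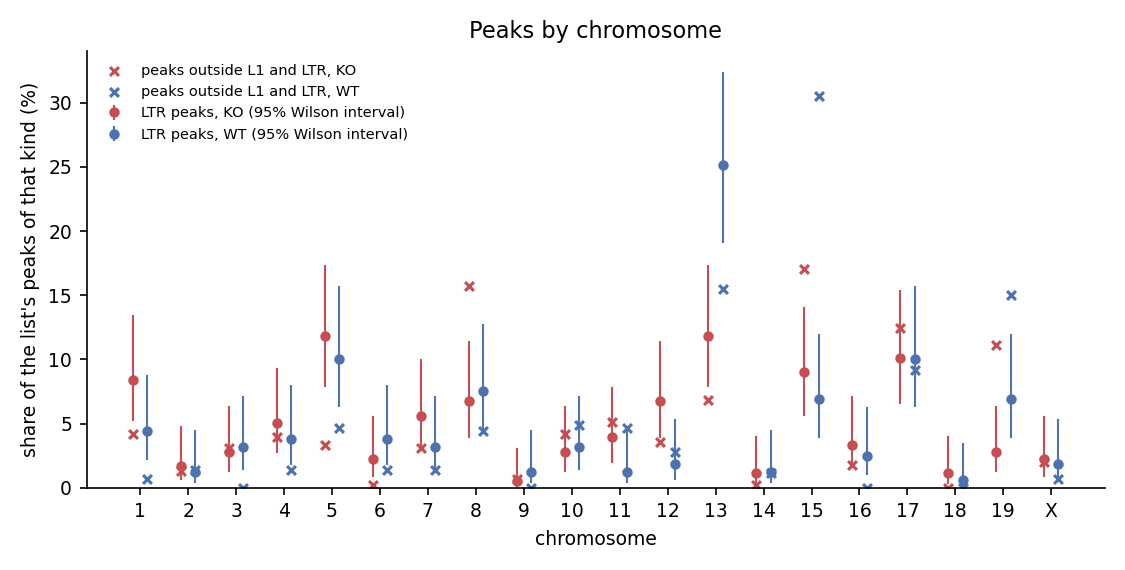
Share of the LTR peaks of each list on each chromosome (y axis, percent; points with Wilson 95% intervals) and share of the peaks outside L1 and LTR (crosses) for KO and WT (x axis, chromosomes). On chromosome 13, WT LTR peaks reach 25.2% and KO LTR peaks 11.8%, and on chromosome 15 the other peaks (17.1% and 30.5%) exceed the LTR peaks.

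The excess of WT LTR peaks on chromosome 13 lay in 1 stretch, which was chosen after the values were seen, so the like counts outside it follow in part from that choice. Between 66000001 and 69000000 there were 27 WT and 9 KO LTR peaks, and on the rest of the chromosome 13 WT and 12 KO. The peaks of that stretch carried 24 repeat names, and 23 of 36 were single-copy, so that they were not copies of 1 element. The gene *2410141K09Rik* was nearest to 16 of them (3 KO and 13 WT), at 5606 to 226159 bp from its TSS, with names from RLTR33, MTA_Mm and ORR1B1-int to MT2B1. *Uqcrb*, which encodes a subunit of respiratory complex III, was nearest to 5 WT and 0 KO LTR peaks, *Urml* to 1 KO and 6 WT, and *BC048507* to 3 KO and 2 WT. Peaks outside LTR elements also lay at the same genes. With the LTR peaks included, *2410141K09Rik* had 15 KO and 35 WT peaks in all and *Uqcrb* 13 KO and 18 WT. The surplus of WT peaks at *Uqcrb* consisted of its 5 LTR peaks.

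Peaks annotated to a promoter carry no repeat name in these lists and could not be LTR peaks, which bears on every distance to a TSS given here. No LTR peak was within 1000 bp of a TSS, and the closest was a WT peak in MLT1B, 1723 bp upstream of *Gramd4*. Their median distances from the nearest TSS were 37809 bp (KO) and 48046 bp (WT), against 105757 and 101537 bp for L1 peaks and 19079 and 16781 bp for those other peaks that are also intergenic or in introns, of which 21 KO and 21 WT peaks were within 1000 bp of a TSS. LTR peaks upstream of the TSS numbered 95 of 178 in KO and 76 of 159 in WT. Introns held 35 KO peaks (19.7%) and 32 WT peaks (20.1%), a difference of -0.463 percentage points (Fisher's exact test, p = 1), and all others were intergenic. The median width was 222 bp for KO LTR peaks (157 to 1273 bp) and 221 bp for WT LTR peaks (157 to 634 bp). The widest was a KO peak in MTC-int near *Esp34*.

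Single-copy LTR peaks had other peaks close by more often than repeated ones. Another peak outside L1, of either list, lay within 10 kb of 48 of 79 single-copy KO peaks (60.8%, 49.7 to 70.8%) and of 25 of 99 repeated KO peaks (25.3%, 17.7 to 34.6%). In WT it was 40 of 66 (60.6%, 48.5 to 71.5%) and 27 of 93 (29.03%, 20.8 to 38.9%). The intervals do not overlap in either list, but they take peaks as independent, whereas neighbouring LTR peaks count each other. The pattern was also chosen after its values were seen. At *Itln1*, which encodes the lectin intelectin, 4 single-copy KO peaks in RLTR12E, BGLII_B, MYSERV16_I-int and RMER21B lay within 11493 bp of the TSS. No WT peak had *Itln1* as its nearest gene, but a WT LTR peak in MT2B1, named to *Cd244*, lay 172 bp from the last of the KO peaks. *Mir7218* on chromosome 17 had 4 single-copy WT LTR peaks and no KO LTR peak, and over all peaks it had 5 WT and 2 KO peaks.

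The nearest genes of LTR peaks numbered 237, with 142 in KO, 125 in WT and 30 in both (21.1% of the KO and 24.0% of the WT genes). Nearest genes of L1 peaks numbered 828, with 596 in KO and 440 in WT, and those of the other peaks 612, with 341 and 331. The overlap was not tested and is not read as a trait of LTR peaks. Of the 237 nearest genes of LTR peaks, 48 had at least 2 LTR peaks. Besides those already named, *Adam6a*, a gene of the sperm surface in the immunoglobulin heavy chain locus, had 3 KO and 1 WT peaks. *Raet1d*, a ligand of an activating receptor of natural killer cells, had 3 and 1 in introns. The salivary gland gene *Smr2* had 3 and 1 in the frame described above. Genes with 3 LTR peaks were *Btbd35f23*, *Gm8016*, *Vmn2r49*, *Zfp808*, *Zfp960*, *Slc4a4*, a bicarbonate transporter gene, and the cytochrome P450 gene *Cyp3a41a*, with 2 KO and 1 WT peaks each, *Cntnap3* and *Tmem65* with 1 and 2, *Mir6388* with 3 KO peaks, and *Naip1*, a sensor of bacterial proteins, with 3 WT peaks. Over all peaks, *Mir6388* had 17 KO and 14 WT peaks, and *Naip1* had 0 KO and 5 WT. The members of the lists of sulfate biosynthesis genes (10 genes), phospholipase genes (9 genes) and genes that silence endogenous retroviruses (9 genes, such as *Trim28* and *Setdb1*) were nearest to no LTR peak, and over all peaks of the series they were nearest to 1 KO and 1 WT peak, 4 KO peaks and 0 peaks, respectively. The sulfate and phospholipase lists were drawn from genes that the study names, and none of the lists holds all genes of its kind. Outside them, and chosen after their values were seen, the sulfotransferase gene *Ust* was nearest to 1 KO and 1 WT LTR peak. *Chst12* was nearest to 1 KO LTR peak, 28067 bp from its TSS. *Dsel* and the phospholipase genes *Pla2g4a* and *Pla2g16* were nearest to 1 WT LTR peak each, at 1065656, 1459648 and 17092 bp. *Pnpla3*, also described as a phospholipase gene, was nearest to 1 KO LTR peak, at 19840 bp. Genes with the words zinc finger in their description were nearest to 7 KO (3.93%) and 4 WT (2.52%) LTR peaks, beside 2.51% and 2.40% of all peaks. Of peaks outside L1 and LTR, they were nearest to 3.10% in KO and 3.29% in WT. With *Zfp551*, whose description in the lists is misspelled, they were nearest to 8 KO LTR peaks (4.49%), beside 2.57% of all KO peaks. Genes described without those words were not counted, such as *2410141K09Rik*, a RIKEN cDNA gene nearest to 3 KO and 13 WT LTR peaks. The order of KO and WT therefore holds only for that wording. Olfactory receptor genes were nearest to 1 KO and 3 WT LTR peaks and vomeronasal receptor genes to 4 and 3, beside 27 and 22, and 31 and 20, over all peaks. No LTR peak had *Meg3* itself as its nearest gene.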

How the data were processed

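The material was the 2 peak lists that the authors deposited for *Meg3* ChIRP-seq, 1 for WT and 1 for β-actin KO MEFs. Per the submitters' notes and the study's methods, the authors used Trimmomatic for trimming, BWA for alignment to GRCm38 and Picard for duplicates, merged 4 libraries per genotype, called peaks with MACS2 at q 0.05 against input, removed blacklisted regions and annotated peaks with HOMER (no versions given). Positions and TSS distances, as deposited, are given in bp, unnormalized and without counts, so depth is unknown, and the deposited score is 1 for all peaks.

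LTR peaks were those with the annotated class LTR, and internal peaks those with -int in the name. The members and lists were chosen with earlier results of these data known. The test of a share was Fisher's exact test, two-sided, at 0.05, with Benjamini-Hochberg adjustment over families, chromosomes or lists. Sequences were read from GRCm38.p6, words of 31 and 100 bases were counted on chromosomes 1 to 19 and X, and matching ends (200 to 1500 bp, 1000 to 12000 bp apart) were found with BLAST+ 2.17.0. Copies were oriented by which end had TGGTGCCG, TGGCGCCC, TGGTGCAT or TGGTACCA beside it. The last pair was chosen after the sequences were seen and was not checked to be primer sites. TGGTACCA, used for MTA, reads the same on both strands, so only its place beside an end gave the orientation. Tested on simulated data, word counting gave the true copy number in 100 of 100 windows for each word length, and the search for ends found 60 of 60 planted pairs and 0 in 60 windows without one. These windows were random sequence, which lacks the repeats of the genome, and the planted ends were longer and more alike than the least the search accepts. How often the search errs in the genome was therefore not measured. Genes named are nearest genes of at least 2 LTR peaks (at most 25), listed pathway genes, and genes chosen after their values were seen because a sequence, a shared copy or an extreme value is shown there. Alternatives were merging peaks within 1 kb, leaving out the 3 chromosomes with the most LTR peaks or peaks over 100 kb from the TSS, keeping single-copy peaks, other denominators, 31-base words, leaving out names with a question mark, and stricter ends. Tests used scipy 1.17.1, word counts numba 0.67.0 and numpy 2.4.6, tables pandas 2.3.3 and plots matplotlib 3.10.9, all under Python 3.11.15.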

Additional observations from a re-analysis of the deposited data

How the results depend on the processing

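Of 50 alternative values of 14 results, 34 kept their direction and their side of the threshold. No difference between KO and WT that failed the test passed it under any alternative run. The difference in the LTR share of all peaks turned from -1.70 percentage points to 1.12 outside L1, 0.655 within 100 kb of the TSS, 1.07 among single-copy peaks and 0.0275 without chromosomes 13, 5 and 17. Among LTR peaks, that in ERVK turned from 5.17 to -3.91 among single-copy peaks and -3.48 without the 3 chromosomes, and that in ERVL from -1.30 to 2.05 and 0.185. That in ERV1 turned from 1.22 to -0.635 within 100 kb, and that in introns from -0.463 to 0.741 within 100 kb and 1.30 among single-copy peaks. The number of chromosomes past the threshold fell from 1 to 0 with peaks merged within 1 kb and to 0 among single-copy peaks, both chosen after seeing the data, while the difference on chromosome 13 went from -13.4 to -10.2 and -18.1 percentage points; at an unadjusted p under 0.05 by Fisher's exact test there were 1 and 2. Framed internal peaks went from 83.2% to 69.6% with stricter ends, also chosen after seeing the data. The causes were not tested.

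No paired analysis was possible because each genotype has 1 pooled list. Peak strength and depth are not in the lists, so weak and strong peaks count alike, and the lists hold no shared peaks, so equal binding in both genotypes cannot be seen. The share of the genome in LTR elements was not analysed here.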
